A study of Homo sapiens with 12 samples.

Results

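IL11 and 9 other genes of the gp130 cytokine axis were followed in cultured PANC-1 cells, a human line established from a ductal adenocarcinoma of the pancreas. The 10 genes were the ligands IL11, IL6, LIF and CLCF1, the receptor chains IL6ST (which encodes gp130), IL11RA, LIFR and OSMR, the transcription factor STAT3 and its feedback inhibitor SOCS3. The set was built around IL11, which was chosen by its higher intensity in TIMP1 knockdown cells in this same comparison, so the group differences of the set are given as descriptions, with no p. Where it is said whether a gene of the set was called, past an adjusted p of 0.05 in the fit over all detected probes, this too describes the choice and is no test of it. All probes carrying these symbols in the platform annotation were taken. They were 13 probes of 8 genes, out of 20046 genes on the array, and 11 of the probes, for 7 genes, were detected. No probe carried the symbols CLCF1 or IL11RA in the annotation used here, and these genes were not analysed here.

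Expression was measured on 12 Illumina bead arrays. In the 6 samples titled TIMP1_KD the cells carried a lentiviral integration of the pLKO.1 vector with an shRNA directed at human TIMP1, and in the 6 titled WildType they carried the pLKO.1 puro vector alone. The control cells were thus not unmodified, and both kinds of cells grew in DMEM with serum and puromycin. The sources used here do not say whether either line came from 1 clone, or whether the replicates were separate cultures. The p-values therefore cover only the variation among these samples, part or all of which may be technical.

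The cytokines of this family signal through a shared receptor chain, gp130. IL11 and IL6 first bind their own receptor (IL11RA or IL6R), LIF binds LIFR, and oncostatin M binds OSMR or LIFR, and each complex then contains gp130. JAK kinases bound to the receptor tails phosphorylate STAT3, which enters the nucleus and switches on target genes, SOCS3 among them; the SOCS3 protein binds gp130 and shuts the signal down. In pancreatic carcinoma this pathway is known for signals that pass between the stroma and the tumour cells, and TIMP1 itself is a known target gene of gp130 cytokines in connective tissue cells.

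The promoter windows of IL11 and OSMR are shown because these genes had the largest differences upwards of the set. Each window holds the 250 bases before the annotated start site, from RefSeq (GRCh38.p14), written 5′ to 3′ along the gene. That of IL11 is chr19:55370464-55370713 on the minus strand and that of OSMR is chr5:38845762-38846011 on the plus strand. Capitals mark a match to the AP-1 element, TGANTCA, which binds FOS and JUN proteins, or to the STAT element, TTCNNNGAA; each motif reads the same on both strands.
IL11: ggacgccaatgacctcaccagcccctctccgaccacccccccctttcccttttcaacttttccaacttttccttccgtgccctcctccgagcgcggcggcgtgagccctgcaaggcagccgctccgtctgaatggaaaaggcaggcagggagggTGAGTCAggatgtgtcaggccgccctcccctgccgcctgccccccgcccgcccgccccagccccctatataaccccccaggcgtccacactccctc
OSMR: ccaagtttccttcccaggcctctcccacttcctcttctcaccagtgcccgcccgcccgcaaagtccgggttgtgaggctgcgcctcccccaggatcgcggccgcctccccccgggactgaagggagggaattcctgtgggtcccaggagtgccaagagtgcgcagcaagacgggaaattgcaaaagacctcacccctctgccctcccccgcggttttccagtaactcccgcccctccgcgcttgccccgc

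The IL11 window held 1 AP-1 element, TGAGTCA, whose first base lay at -96 relative to the start site. It held no STAT element. Windows were found for 8 of the 10 genes, 12 windows in all, and that of IL11 was the 1 window with an AP-1 element, while 2 windows of LIFR had a STAT element, TTCCTTGAA in 1 and TTCATCGAA in the other. Among all 35116 windows of this length, 6.57% held the AP-1 element and 6.57% the STAT element. These matches are letters in a reference sequence, and no binding was measured.

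In each of the 12 arrays between 15681 and 17680 of the 47323 probes were detected (detection p under 0.05, a comparison with the negative controls of the array). Knockdown arrays had 16861 ± 641 and control arrays 16160 ± 350 detected probes (SD, n = 6 each), and knockdown 2 and knockdown 6 had the most. TIMP1, the target of the hairpin, lay between 13.49 and 13.63 in the knockdown and between 13.64 and 13.86 in the controls (normalised log2 intensity; log2 difference -0.19 ± 0.04 (SE), limma adjusted p = 0.101). All 7 epithelial and ductal markers were detected, namely KRT7, KRT8, KRT18, KRT19, EPCAM, MUC1 and VIM, the last of which encodes a filament protein of mesenchymal cells. Their summed linear level was 21919 to 23241 in knockdown and 21340 to 22966 in control arrays, and without VIM it was 9424 to 10108 in knockdown and 9571 to 10109 in control arrays. None of the 8 fibroblast and stellate cell markers, COL1A1, COL1A2, DCN and PDGFRB included, was detected. CD14 and CD68 of the 6 leukocyte markers (5 with a probe), PECAM1 of the 4 endothelial markers and PRSS1 and CELA3A of the 6 acinar and islet markers were detected, while PTPRC, CDH5, INS and AMY2A were not. The summed levels of these detected markers ranged from 2028 to 2535 in knockdown and 2043 to 2296 in control arrays for leukocytes, from 362 to 628 in knockdown and 412 to 507 in control arrays for endothelium, and from 2475 to 2987 in knockdown and 3040 to 3309 in control arrays for acinar and islet cells. Their part in the results was not tested.

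IL11 was higher in every knockdown array than in any control array. The IL11 protein is a secreted cytokine that acts on cells carrying IL11RA. The deposited signal of its probe, ILMN_1788107, was 875, 1167, 917, 1058, 946 and 974 in knockdown 1 to 6, against 673, 580, 681, 678, 657 and 831 in control 1 to 6. The gap was narrow, since control 6 stood above the other 5 controls and knockdown 1 was the lowest of the knockdown arrays. After background correction and normalisation the log2 intensity was 9.45, 9.93, 9.53, 9.77, 9.63 and 9.73 in knockdown 1 to 6, against 8.91, 8.83, 9.07, 8.96, 9.02 and 9.41 in control 1 to 6. The means were 9.67 ± 0.17 in the knockdown and 9.03 ± 0.20 in the controls (SD, n = 6 each). The log2 difference was 0.64 ± 0.10 (SE), a 1.56-fold higher intensity, with a 95% interval of 0.42 to 0.86. It ranked 12 among the 9780 detected genes ordered from the largest difference upwards, and this rank is part of why IL11 was chosen. In bulk RNA a higher share of cells making IL11 and more IL11 RNA per cell cannot be told apart.

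**Figure D1:**
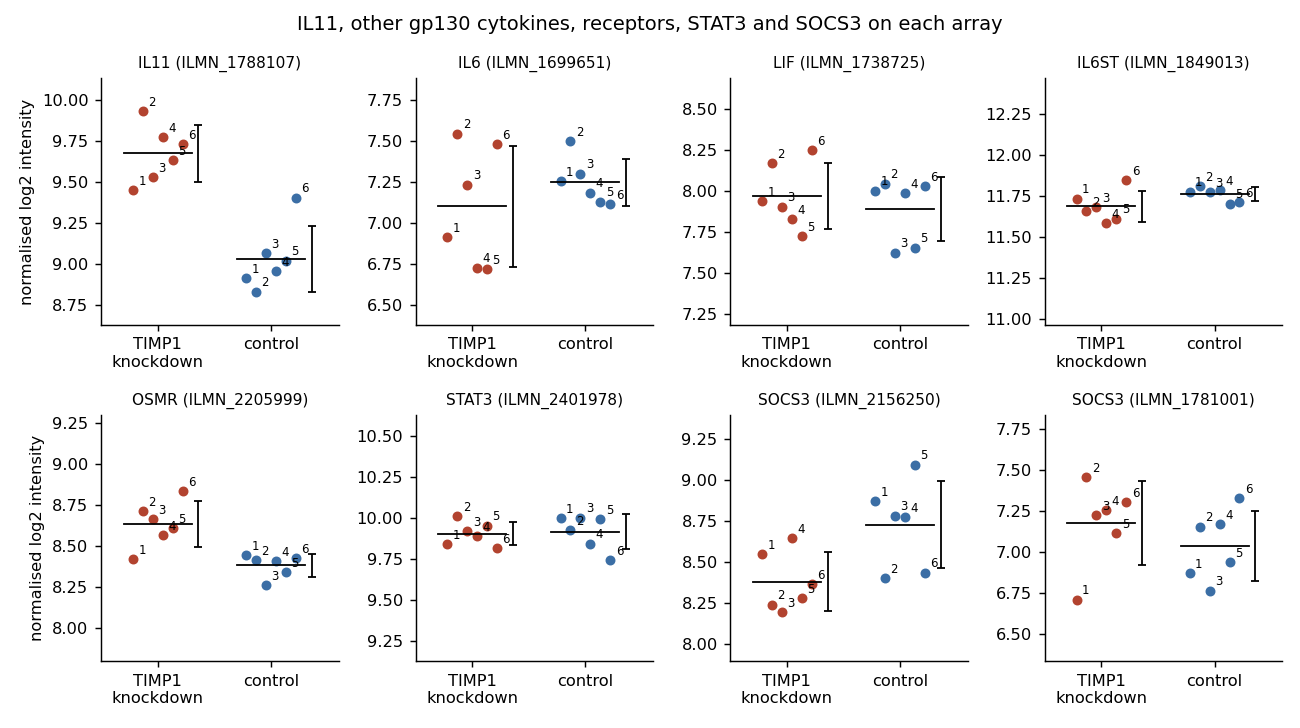
Normalised log2 intensity (vertical axis, a span of equal size in every panel) of 8 probes in 6 TIMP1 knockdown arrays (left, red) and 6 control arrays (right, blue). Numbers are replicates, lines are group means and bars beside them are SD. The IL11 groups do not overlap, with knockdown 1 at 9.45 and control 6 at 9.41 nearest to each other, and the groups of the other 7 probes do.

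The other detected ligands did not separate the groups. IL6, the founding cytokine of the family, had a log2 intensity of 6.91, 7.54, 7.24, 6.73, 6.72 and 7.48 in knockdown 1 to 6, against 7.26, 7.50, 7.30, 7.19, 7.13 and 7.12 in control 1 to 6. Of the knockdown arrays 3 lay below the lowest control and 1 above the highest, and the SD was 0.37 in the knockdown and 0.14 in the controls. The log2 difference of IL6 was -0.14 ± 0.15 (SE), with an interval of -0.47 to 0.18. Without knockdown 2 and 6, the highest IL6 arrays of their group, it was -0.35.

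LIF, which acts through LIFR and gp130, had 7.93, 8.17, 7.90, 7.83, 7.72 and 8.25 in knockdown 1 to 6, against 8.0, 8.04, 7.62, 7.99, 7.65 and 8.03 in control 1 to 6. Knockdown 2 and 6 were above all controls and the other 4 knockdown arrays were within the control range. The log2 difference of LIF was 0.08 ± 0.11 (SE; interval -0.15 to 0.31). Both genes were detected on all 12 arrays, as was IL11, but not at the same strength. The detection p was 0.0065 to 0.0416 for IL6 and 0 to 0.0182 for LIF, and it was 0 on every array for IL11. The differences of IL6 were thus measured close to background.

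Of the receptor chains, OSMR had the largest difference. OSMR pairs with gp130 to bind oncostatin M. Its probe had 8.42, 8.71, 8.67, 8.57, 8.61 and 8.83 in knockdown 1 to 6, against 8.45, 8.42, 8.26, 8.41, 8.34 and 8.42 in control 1 to 6. Every knockdown array but knockdown 1 lay above the highest control. The log2 difference was 0.25 ± 0.06 (SE), with an interval of 0.11 to 0.39. It was 0.13 once each array's count of detected probes entered the fit, and it was above 0 in all 22 alternatives. Some of these, such as changes of the detection filter, cannot alter the estimate.

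IL6ST encodes gp130 itself, and its probes gave small differences of unequal sign. The brightest, ILMN_1849013, had 11.73, 11.66, 11.68, 11.59, 11.61 and 11.85 in knockdown 1 to 6, against 11.78, 11.81, 11.78, 11.79, 11.70 and 11.71 in control 1 to 6. Of the knockdown arrays 4 lay below the lowest control, while knockdown 6 lay above the highest. The log2 difference was -0.07 ± 0.05 (SE; interval -0.17 to 0.03), and with scaling of the arrays to a common median it was 0.05. Under that scaling the median difference over the detected probes was itself 0.12. The second detected probe, ILMN_1797861, ranged from 8.75 to 8.98 in the knockdown and from 8.74 to 8.86 in the controls, with a difference of 0.04 ± 0.05 (SE). The remaining probe, ILMN_1746604, was detected on 5 knockdown arrays and 0 control arrays, with 6.52 to 6.74 in the knockdown and 6.37 to 6.54 in the controls; it lay at the floor of detection, and no fold is given.

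LIFR, the receptor chain for LIF, was close to background. It was detected on 2 of the 6 knockdown arrays and on 0 of the 6 control arrays, with a log2 intensity of 6.05 to 6.69 in the knockdown and 6.22 to 6.52 in the controls. Because its control level is only bounded by the background, no fold is given. Absence of a detected signal at this precision does not show that the gene is silent.

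STAT3, the transcription factor of the pathway, was detected by 3 probes on all 12 arrays. The brightest, ILMN_2401978, had 9.84, 10.01, 9.92, 9.89, 9.95 and 9.82 in knockdown 1 to 6, against 10.00, 9.93, 10.00, 9.84, 9.99 and 9.74 in control 1 to 6. The groups overlapped almost wholly, and the log2 difference was -0.01 ± 0.05 (SE; interval -0.13 to 0.10). The other probes had 0.09 ± 0.06 for ILMN_1663618 and 0.11 ± 0.12 (SE) for ILMN_2410986. The annotation ties ILMN_2410986 to another transcript record than the other probes, and its controls had the widest spread of the 3, from 7.97 to 8.59.

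The probes of SOCS3, the feedback inhibitor, differed in sign. The brighter, ILMN_2156250, had 8.55, 8.24, 8.20, 8.65, 8.28 and 8.37 in knockdown 1 to 6, against 8.87, 8.40, 8.78, 8.78, 9.10 and 8.44 in control 1 to 6. No knockdown array exceeded the control median, and 4 lay below the lowest control. Its log2 difference was -0.35 ± 0.12 (SE), with an interval of -0.61 to -0.08, and it was below 0 in all 22 alternatives, some of which cannot alter the estimate. The dimmer probe, ILMN_1781001, had 6.71, 7.46, 7.22, 7.25, 7.12 and 7.30 in knockdown 1 to 6, against 6.87, 7.16, 6.76, 7.17, 6.94 and 7.33 in control 1 to 6, where 5 knockdown arrays exceeded the control median. Its difference was 0.14 ± 0.13 (SE; interval -0.13 to 0.41). This dimmer probe lay close to background, with a detection p between 0.0104 and 0.0481. Its difference was above 0 in 20 of 21 alternatives, and it was -0.06 with detected probes as a covariate. The probes gave opposite signs, so no direction is given for the SOCS3 transcript.

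**Figure D2:**
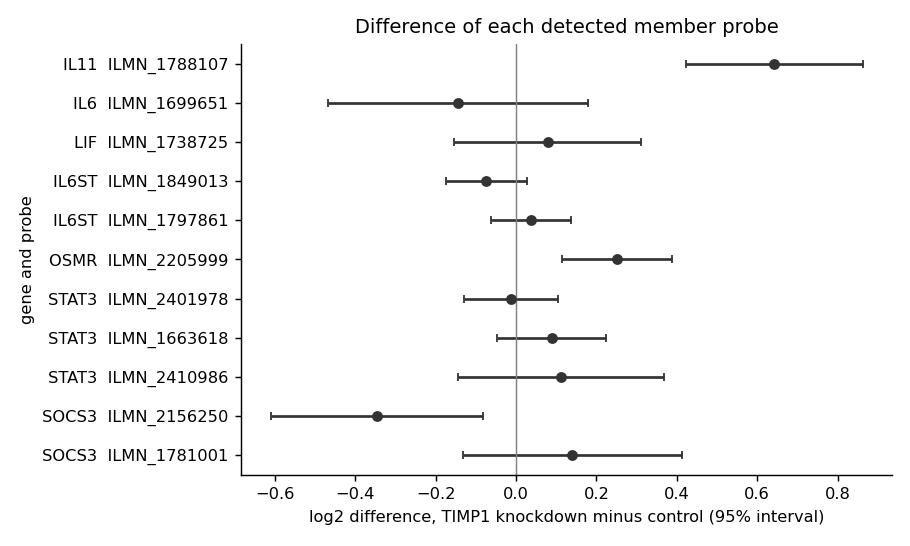
Log2 difference, TIMP1 knockdown minus control, of the 11 detected probes, from the ligands (top) through the receptor chains to STAT3 and SOCS3 (bottom); points are estimates and bars are 95% intervals from the moderated fit. IL11 stands at 0.64, OSMR at 0.25 and the brighter SOCS3 probe at -0.35, and the intervals of the other 8 probes include 0.

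Over the 7 genes with a detected probe, each by its brightest, 3 had a log2 difference above 0 and 4 below, against 57.1% above 0 among all 9780 detected genes. Their median was -0.01, against 0.02 over all detected genes. By limma's adjusted p under 0.05 over all detected probes, 1 of the 7, IL11, was called, where 0.389% of all detected genes were; its groups were also the 1 case without overlap, where 1.91% of all detected genes had none. Both counts rest on the difference by which IL11 was chosen and are no support for it.

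The call of IL11 was less stable than its size. Over 22 alternative settings and a difference of medians its log2 difference lay between 0.52 (no background correction) and 0.77 (median scaling), or between 0.51 and 0.71 above the median difference of the probes tested. It was called in 8 of the 22, and in the other 14 it was not, among them every removal of 1 array other than knockdown 1 or control 6. Without knockdown 1, OSMR was called too. IL11 was 0.56 without knockdown 2 and 6 and 0.56 with detected probes as a covariate, and was called in neither. The groups overlapped with median scaling and in no other setting.

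**Figure D3:**
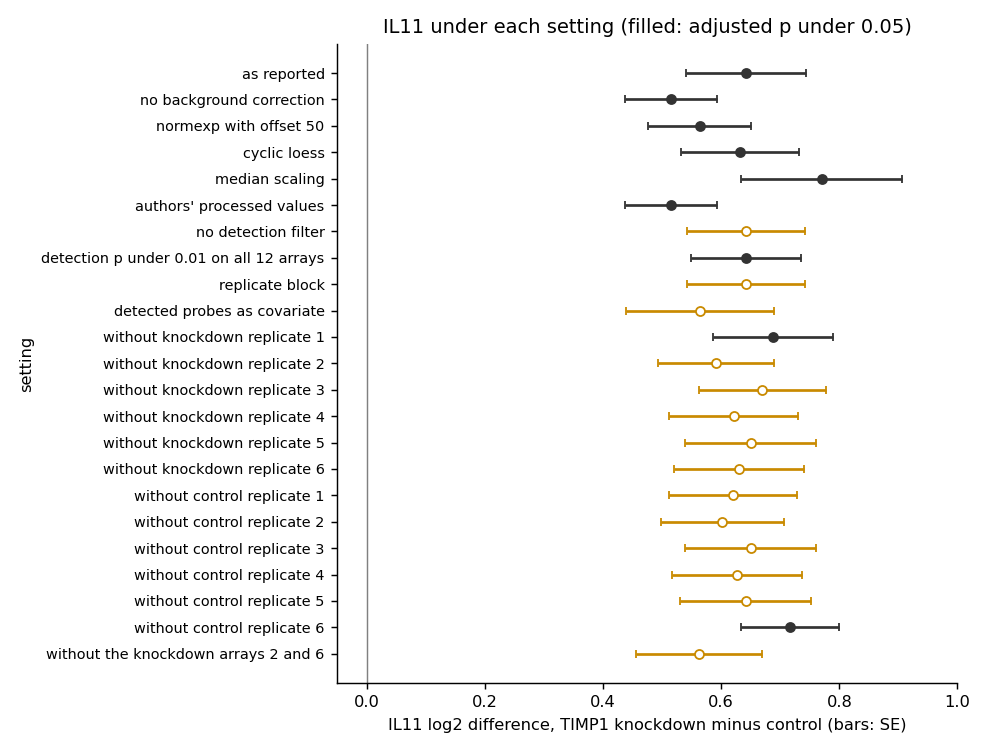
Log2 difference of IL11, TIMP1 knockdown minus control, as reported (top) and in 22 alternative settings; bars are SE, and filled points have a limma adjusted p under 0.05 over the probes tested. The estimates lie between 0.52 and 0.77, and 14 of the 22 alternatives are open points.

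Among the other genes of the pathway 1 passed the test. The lists held 97 genes, of which 54 were detected. They were written from general knowledge but with earlier results of these data known, so they are not independent of the data. The 1 of 54 stands beside 0.389% of all detected genes. Of the 54, 32 had a log2 difference above 0 and 22 below, where 57.1% of all detected genes lay above 0, and the median was 0.02, as over all detected genes. Without adjustment 12 of the 54 had a limma p under 0.05, where 15% of all detected genes did. The 12 include TIMP1, the target of the hairpin. The same 15% is the share to set beside the unadjusted count of each list below. SAA1, an acute phase protein and a classical STAT3 target in liver, was the 1 that passed and rose. Its log2 intensity was 10.99, 11.39, 11.22, 11.26, 11.16 and 11.21 in knockdown 1 to 6, against 10.76, 10.89, 10.79, 10.87, 10.91 and 10.93 in control 1 to 6. No knockdown array overlapped the controls, and the log2 difference was 0.35 ± 0.06 (SE; limma adjusted p = 0.0444). Its dimmer detected probe had 0.40 ± 0.09 (adjusted p = 0.0992). SAA1 passed in 7 of the 22 alternatives, with an adjusted p between 0.00772 and 0.456; it did not pass without knockdown 2 and 6. SAA1 and SAA2 are near-identical copies, so the signal cannot be assigned to SAA1 with certainty. The 1 probe of SAA2 was detected on 0 of the 12 arrays, which does not settle the assignment.

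None of the other 18 detected genes in the list of 28 STAT3 targets passed. LRG1, a secreted glycoprotein, had a log2 difference of 0.29 ± 0.12 (SE; adjusted p = 0.302) and CEBPD, a transcription factor of the acute phase, had 0.14 ± 0.06 (adjusted p = 0.334). TIMP1, the gene targeted by the hairpin, stood in this list and had -0.19. The median of the list was 0.03, with 11 genes above and 8 below 0. Before adjustment 6 of the 19 had a limma p under 0.05, where 15% of all detected genes did. They lay in both directions: SAA1, LRG1, CEBPD and IRF1 (0.10) above 0, and ICAM1 (-0.21) and TIMP1, the hairpin's own target, below. IRF1 and ICAM1 were named after their values were seen.

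Of 12 other ligands and receptors of the family, 1 was detected. This was IL27RA, the IL27 receptor chain, at -0.15 ± 0.07 (SE; adjusted p = 0.364). OSM, CNTF, CTF1, CNTFR, IL27, EBI3, IL31, IL31RA, IL12RB2 and IL6R, the receptor that IL6 binds first, were detected on 0 of the 12 arrays.

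Of the 8 detected kinases, STATs and adaptors 0 passed (0 also at an unadjusted limma p under 0.05). JAK1, a kinase bound to gp130, had 0.01 ± 0.06 (SE; adjusted p = 0.958), STAT5A had -0.15, the docking protein GAB2 0.14, SHC1 -0.07 and SOS1 -0.08. GAB2 and SOS1 lay close to background and were detected on 8 and 6 arrays only. Of the 6 detected negative regulators 0 passed (1 at an unadjusted p under 0.05). That gene was PTPN2, a tyrosine phosphatase that acts on JAK kinases and STATs, at 0.10 ± 0.03 (SE; adjusted p = 0.219), or -0.06 on its dimmer probe. PIAS1 had -0.10, SOCS2 0.05 and the phosphatase PTPN1 0.02.

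In the list of AP-1, TGF-beta and other regulators of IL11 transcription, 0 of 13 detected genes passed. The list also holds the receptor TGFBR2 and the enzyme PTGS2. An unadjusted limma p under 0.05 was found for 2 of the 13, where 15% of all detected genes had one. They were FOSB and EGR1, with differences of opposite sign. FOSB, an AP-1 subunit, had 0.15 ± 0.06 (SE; adjusted p = 0.261), and JUN, its partner, had 0.07 ± 0.04 (adjusted p = 0.4). EGR1, an immediate early factor, had -0.09 and SMAD2, a mediator of TGF-beta signals, 0.17. SMAD2 lay close to background and was detected on 7 arrays only. Its log2 intensity was 6.47 to 7.11 in the knockdown and 6.18 to 6.74 in the controls. The median of this list was 0.02.

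Of 5 other detected cytokines 0 passed (1 at an unadjusted limma p under 0.05). IL1B, a known inducer of IL11, had 13.20, 13.54, 13.23, 13.05, 13.22 and 13.52 in knockdown 1 to 6, against 13.08, 13.06, 13.002, 13.09, 13.09 and 13.07 in control 1 to 6. Knockdown 2 and 6 stood above the rest, and the log2 difference was 0.23 ± 0.08 (SE; adjusted p = 0.23). IL1A had 0.10, IL18 0.04 and IL32 -0.19. IL32 lay close to background and was detected on 11 arrays.

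Neither protease that sheds these receptors from the cell surface passed. Both had an unadjusted limma p under 0.05, as 15% of all detected genes did, with differences of opposite sign. ADAM10, which cleaves IL11RA and is a known target of TIMP1 inhibition, had a log2 difference of -0.11 ± 0.05 (SE; adjusted p = 0.313). ADAM17, which cleaves IL6R, had 0.18 ± 0.08 (adjusted p = 0.343) on its brightest probe and 0.00 on the other. ADAM17 was highest on knockdown 2 and 6, at 10.17 and 10.09, against 9.74 to 9.81 on the other 4 knockdown arrays and 9.59 to 9.82 on the controls.

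**Figure D4:**
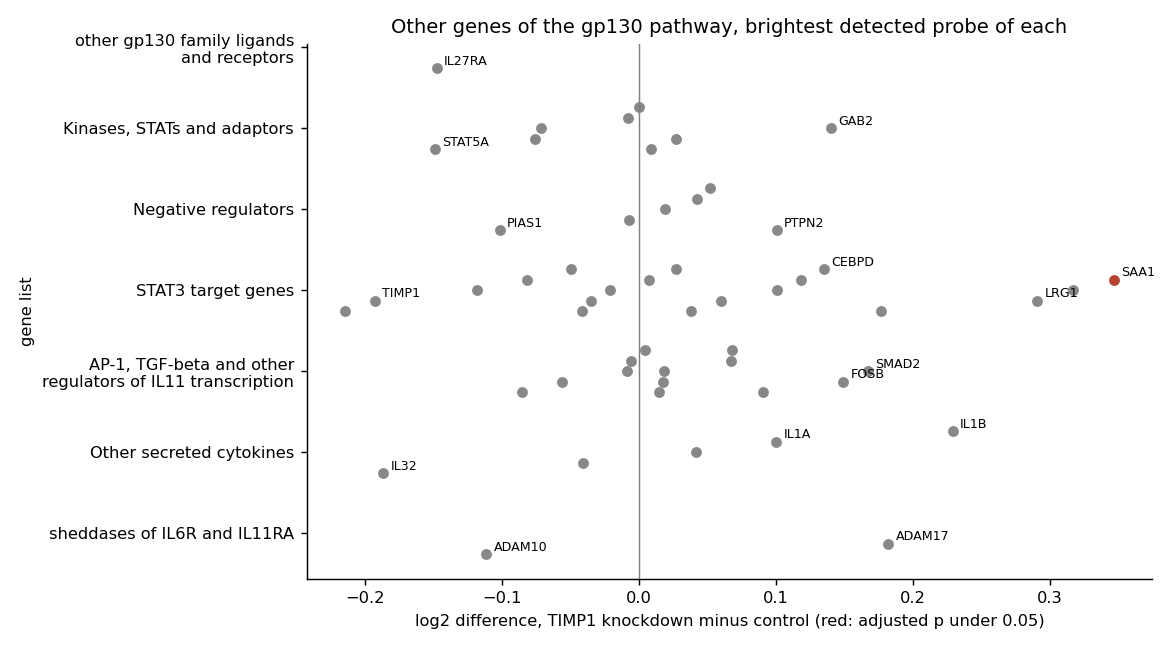
Log2 difference, TIMP1 knockdown minus control (horizontal axis), of the 54 detected genes of 7 pathway lists (rows), 1 point per gene by its brightest probe, spread vertically for legibility. SAA1, in red at 0.35, is the 1 gene with a limma adjusted p under 0.05.

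The transcripts whose arrays ran most like those of IL11 lay outside the gp130 axis. Over the 12 arrays the highest Pearson r with IL11 among 9779 other detected genes was that of S100A9, a calprotectin subunit, at 0.98, followed by SPNS2, a sphingosine 1-phosphate transporter, at 0.97, SPRR2D, a cornified envelope protein, at 0.97, and CST1, a cysteine protease inhibitor, at 0.97. MAP7D2, RAB3IL1, CTDP1 and OLR1 followed, with r from 0.95 to 0.96. SPRR2 genes are near-identical copies, so SPRR2D cannot be told from the others with certainty. These r include the difference between the groups, which all 8 genes share in direction and which chose IL11, so they are descriptions only, as are the values within groups that follow. Over all 9779 genes the median r was 0.10 and the 95th percentile 0.72. Among the other detected members r ran from -0.64 (SOCS3) to 0.78 (OSMR), which also includes the group difference.

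Within the 6 knockdown arrays alone r with IL11 was 0.88 for S100A9, 0.90 for SPNS2, 0.71 for SPRR2D and 0.94 for CST1, and within the 6 control arrays it was 0.88, 0.90, 0.98 and 0.895 in the same order. Control 6 was the highest control for all 4 genes, as it was for IL11, and knockdown 1 the lowest knockdown array. S100A9 had 10.89, 11.46, 11.18, 11.28, 11.05 and 11.38 in knockdown 1 to 6, against 9.99, 10.04, 10.27, 10.35, 10.37 and 10.65 in control 1 to 6. With each array expressed as its deviation from its group mean, SPNS2 ranked first with r of 0.89, HERC4, a ubiquitin ligase, had 0.89, S100A9 0.88 and VPS13A, a lipid transfer protein, 0.88, followed by FADS1, SPRR2D, C5orf24 and NUP58 with r from 0.87 to 0.88. S100A9, SPNS2 and SPRR2D were the 3 genes in both sets of 8. Over all genes the median r over deviations was 0.07 and the 95th percentile 0.57, and OSMR had 0.32. Without control 6 and knockdown 2, the arrays farthest from the median, the 8 values of r over deviations were between 0.67 and 0.89. All of these values come from the same 12 arrays and share their normalisation.

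**Figure D5:**
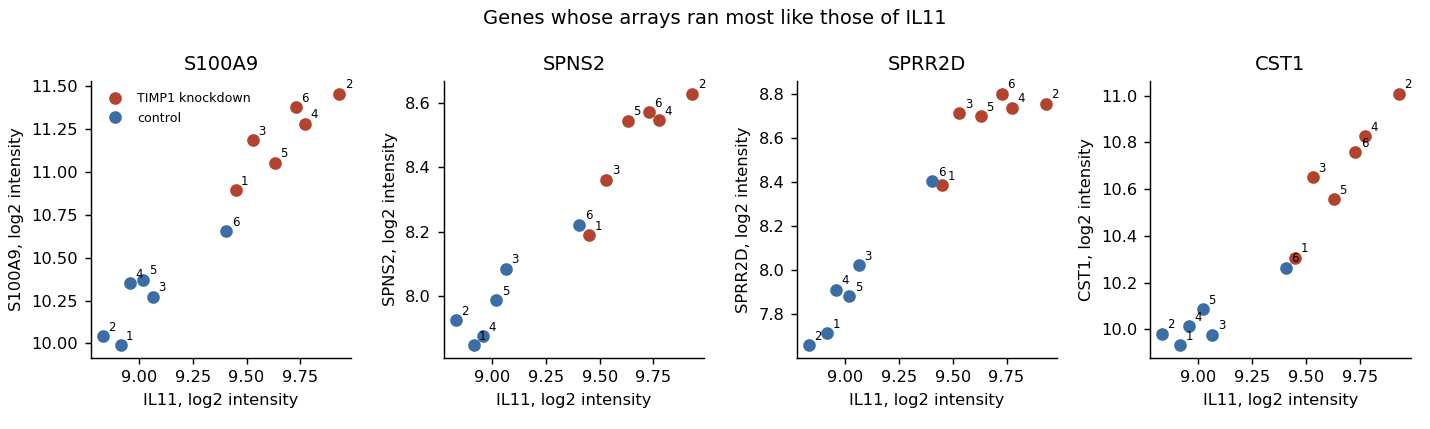
Log2 intensity of S100A9, SPNS2, SPRR2D and CST1 (vertical axes) against that of IL11 (horizontal axes) on 6 TIMP1 knockdown arrays (red) and 6 control arrays (blue), numbered by replicate. Control 6 and knockdown 1 lie next to each other between the groups in each panel.

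No relation of IL11 with the other genes of the axis within groups passed the test. With n = 6 and 14 relations, little short of a near-perfect correlation could pass. The outcome therefore does not show that IL11 is unrelated to these genes. Among 14 relations (6 other members and the number of detected probes, each within the knockdown and within the controls, n = 6), Pearson r lay between -0.71 and 0.84, and no exact permutation p passed Benjamini-Hochberg adjustment, two-sided (smallest adjusted p = 0.564). The highest was with the number of detected probes in the knockdown, with r of 0.84 (exact permutation p = 0.0403) and rho of 0.83 (exact p = 0.0583), or r of 0.74 without the 2 arrays farthest from the IL11 median. In the controls that r was -0.49 (exact p = 0.347) and rho -0.60 (exact p = 0.242). OSMR, with the next largest difference upwards, had r of 0.57 with IL11 in the knockdown (exact p = 0.221) and -0.05 in the controls (exact p = 0.907), and rho of 0.49 (exact p = 0.356) and -0.31 (exact p = 0.564). Without the 2 arrays farthest from the IL11 median these r of OSMR were 0.06 and -0.99. Values of r without 2 of 6 arrays rest on very few arrays, so no relation is read from them.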

How the data were processed

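Total RNA of 12 samples was labelled with an Illumina amplification kit, per the labels' protocols. Each probe had a linear intensity and a detection p-value on every array in the deposited table, per the file headers; no source used here names the software behind them. The authors' processed intensities, whose values matched a quantile normalisation of the linear signal, served as an alternative (limma is named in the submitters' processing notes, with no step given). Groups came from the sample titles.

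Signals were background corrected, quantile normalised and put on the log2 scale with neqc (offset 16) of limma 3.58.1 in R 4.3.3. The offset pulls differences of dim probes towards 0. Probes with a detection p under 0.05 on at least 6 arrays were kept (16495 of 47323). Of all probes 30113 had 1 gene symbol, 8 several and 17202 none; symbols were updated through a RefSeq table (GRCh38.p14) for 30074. A gene was represented by its brightest detected probe. No source used here gives the genome build of the array.

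Differences are knockdown minus control from lmFit and eBayes across all detected probes, with Benjamini-Hochberg adjustment. Members and lists were chosen with earlier results of these data known. All member probes were named, and from each list up to 4 genes with the smallest p, with ADAM10, ADAM17, JAK1, IL6R and TIMP1 always given, and the 8 genes most like IL11 by each measure. Tested on simulated data of the same 16495 probes for knockdown against control, with 40 changed probes per size, the fit found 13 of those shifted by 0.2, 26 by 0.4, 32 by 0.6, 37 by 0.8 and 37 by 1 (log2). It made 10 false calls. The changed probes of all sizes together outnumbered the 50 probes called in the data, which loosens the adjusted threshold. The shares found may therefore be too high for these data. Precision is limited by the number of arrays. Alternatives changed the background correction, normalisation, filter, design and arrays. Figures were drawn with matplotlib 3.10.9.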

Additional observations from a re-analysis of the deposited data

Results flagged for a closer look

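Array values that stood apart from the other 5 of their group, by the gap to the nearest value relative to the group's range, were found in 7 of 74 sets of 6 arrays (members and named pathway genes), where chance gives about 1 in 20. For STAT3 (ILMN_2410986) knockdown 6 had 8.12, against 8.43 to 8.54 on the other knockdown arrays. STAT5A had 8.55 on control 2, against 8.26 to 8.33 on the other controls. SHC1 had 12.22 on knockdown 5, against 12.38 to 12.45 on the other knockdown arrays, and 12.62 on control 1, against 12.40 to 12.44 on the other controls. JUN had 11.02 on knockdown 4, against 10.87 to 10.90. SMAD2 had 7.11 on knockdown 6, against 6.47 to 6.70. IL32 had 6.41 on control 5, against 7.12 to 7.32 on the other controls. The IL11 value of control 6 was not among them.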

How the results depend on the processing

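The IL11 difference stayed above 0 in all 23 alternatives and moved by less than 1 SD between replicates in each. Without 1 array it lay between 0.59 and 0.72. Changes of the filter and the replicate block leave each estimate as it was. The authors' processed values gave 0.52, as did no background correction. Removing arrays could hardly bring to 0 a difference chosen for its size. These outcomes are thus no support for the IL11 difference. Of 216 other member values under alternatives, 212 moved by less than 1 SD. The counts of calls moved more. The main counts were 1 member gene, 1 pathway list gene and 50 probes. Without 1 array they lay between 0 (all but knockdown 1 or control 6) and 2 (without knockdown 1) for members, between 0 and 1 for the lists, and between 1 and 144 for probes. With no detection filter they were 0, 0 and 11, and without knockdown 2 and 6 they were 0, 0 and 2. With detected probes as a covariate they were 0, 0 and 0. With median scaling the list count was 0 and the probe count 11; with the filter at p under 0.01 on all arrays the list count was 2 (SAA1 and TIMP1); with cyclic loess 32 probes were called. With the replicate number as a block the counts were 0, 0 and 28. The numbers were not taken to pair the samples. Same-numbered arrays correlated at -0.11 to 0.19 in their deviations, and 3 of 6 pairs were over 0.1. Of the knockdown arrays 2 of 6 correlated best with their own number. No values for differently numbered arrays are given beside these, so they do not settle whether the numbers pair the samples. Of the 8 genes most like IL11, Spearman correlation kept 4 over the 12 arrays and 3 over deviations from group means, and median scaling kept 3 over deviations. The causes were not tested. Signals of LIFR and the dimmest IL6ST probe were limited by the background. Those of IL6 and the dimmer SOCS3 probe lay close to it, with a detection p of up to 0.0416 and 0.0481. Those of SMAD2, SOS1, GAB2 and IL32 also lay close to it, and these genes were not detected on every array.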
